A study of Oryza sativa with 8 samples.

Results

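The comparison described here is that of anther with panicle within rice plants carrying a knockdown of nrpd1, which encodes the catalytic subunit of RNA polymerase IV. Genes were included where the FPKM (fragments scaled to transcript length and library size) was at least 1 in either knockdown column of the table. This gave 18958 genes of 30154 gene names. The 11196 names left out were below 1 FPKM in both knockdown columns. Close to that limit, 340 included genes had a larger value from 1 to 1.1 FPKM and 345 names left out had one from 0.9 to 1 FPKM.

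The groups used were nrpd1 knockdown anther, nrpd1 knockdown pre-emerged panicle, wild-type (WT) anther and WT pre-emerged panicle. All were of the indica cultivar Pusa Basmati 1 (PB1), grown in a greenhouse at natural day length, and anthers were taken before dehiscence. Each group has 2 libraries in the labels but 1 value per gene in the table, so no value has a replicate error and no difference could be tested. The labels speak of knockdown lines but do not say how these were made, how many lines or plants the libraries stand for, or the age of the plants, and no row could be tied by name to nrpd1, so the knockdown was not checked.

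RNA polymerase IV makes the precursors of small RNAs that direct DNA methylation in plants. The anther is the male organ of the flower, in which the tapetum nourishes developing pollen. The pre-emerged panicle is the whole inflorescence inside the leaf sheath, with its branches, glumes, lemmas and paleas, and it contains anthers of its own. In RNA from whole organs, fewer cells of a type and less RNA per cell cannot be told apart.

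Summed FPKM lay between 341703 (knockdown anther) and 636692 (WT anther) in the 4 columns, and the depth in reads is unknown. The identifiers are mostly Os numbers, which neither the table nor the reference pairs with names. None of the 28396 single Os numbers was found in RefSeq. A further 159 names are single gene symbols, and these are what could be described by function. Of the 159 symbols, 93 were found in RefSeq on the same chromosome, and 100 passed the FPKM limit in the knockdown.

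On the log2(FPKM + 1) scale, and by a margin of 1 or more, knockdown anther exceeded knockdown panicle in 2653 genes (14.0% of those compared), and knockdown panicle exceeded knockdown anther in 4261 genes (22.5%). Anther thus held 38.4% of the genes past that threshold. The remaining 12044 genes, 63.5%, differed by less. The median difference, anther minus panicle, was -0.05. Its quartiles were -0.88 and 0.53, and single genes lay between -10.66 and 10.15. In WT, anther was the higher organ in 3856 of 18935 genes (20.4%) and panicle in 3429 genes (18.1%), so that anther held 52.9%.

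The split within the knockdown depended on how the columns were scaled. Anther held 46.2% of the genes past the threshold when each column was centred on its median, 46.0% after quantile normalization, and 50.8% (3747 genes higher in anther, 3631 higher in panicle) when columns were scaled to equal total FPKM. These scalings moved the median of all compared genes to 0.10, 0.13 and 0.22. Which organ had more genes past the threshold thus turned with the scaling to equal totals.

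**Figure D1:**
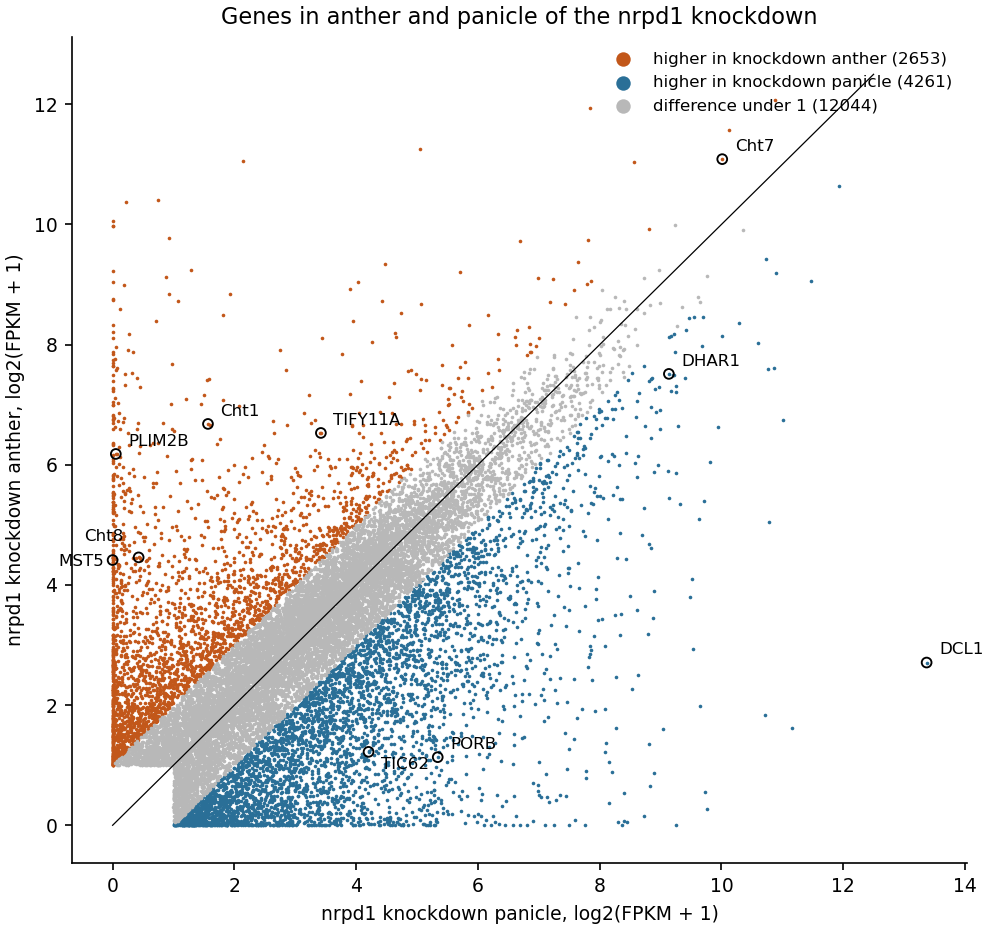
Level of each of the 18958 genes in knockdown anther (vertical axis) and knockdown panicle (horizontal axis), both as log2(FPKM + 1), with the line of equal values. Orange points are the 2653 genes higher in anther, blue points the 4261 higher in panicle and grey points the 12044 with a difference under 1; circled genes are described in the text, and DCL1 stands alone at the right with 10595 FPKM in knockdown panicle.

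The most abundant transcripts of the organs differed. The 3 most abundant genes of knockdown anther, none of them annotated, stood at 4317, 3945 and 3029 FPKM in knockdown anther, against 1876, 228 and 1109.8 FPKM in knockdown panicle. After DCL1, described below with the other genes of small RNAs, the most abundant entries of knockdown panicle were an unannotated gene at 1598 FPKM in knockdown anther and 3925 FPKM in knockdown panicle, and a joined entry at 535 and 2828 FPKM. Of the 100 most abundant genes of knockdown anther, 56 were higher in anther and 13 higher in panicle, and of the 100 most abundant of knockdown panicle, 80 were higher in panicle and 5 higher in anther. Only 32 genes were on both lists. Picking genes by their level in 1 organ favours a higher value in that organ. Over all genes, 14.0% were higher in anther and 22.5% in panicle. Differences were commoner among abundant genes. Of 884 genes whose larger value was between 100 and 1000 FPKM, 18.4% were higher in anther and 42.6% higher in panicle, against 13.9% and 17.4% of the 6243 genes between 1 and 5 FPKM. The added 1 FPKM understates differences of genes at low levels.

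Large differences were more frequent within the knockdown than within WT. A difference of at least 4 was reached by 271 genes higher in anther and 319 higher in panicle in the knockdown, against 55 and 211 genes in WT. At 6 or more the numbers were 82 and 64 genes in the knockdown, against 2 and 18 genes in WT. Differences from 1 to 4 with higher values in anther were, in contrast, fewer in the knockdown. There were 1629 genes from 1 to 2 and 753 from 2 to 4 in the knockdown, against 2379 and 1422 in WT. These counts by size were not recomputed with other scalings of the columns.

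**Figure D2:**
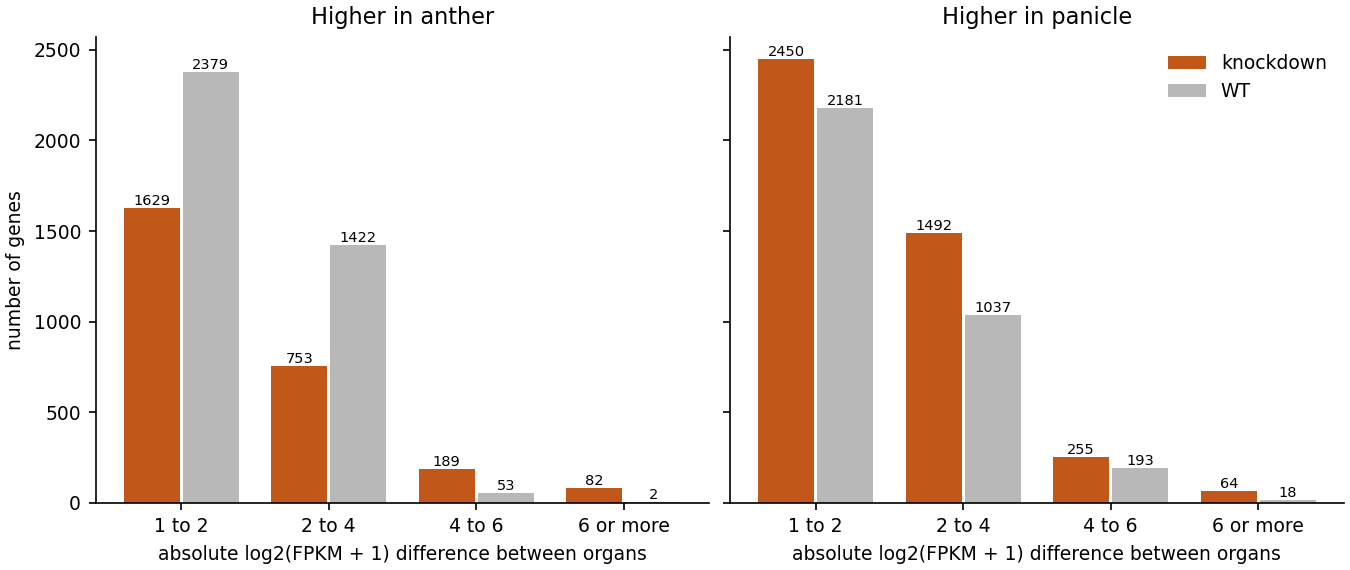
Number of genes (vertical axis) by the absolute difference between organs on the log2(FPKM + 1) scale (horizontal axis), for genes higher in anther (left) and higher in panicle (right). Orange bars are the knockdown and grey bars WT; in the highest class the knockdown has 82 genes higher in anther and 64 higher in panicle, against 2 and 18 in WT.

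A sharper form of the contrast was a transcript at 10 FPKM or more in one organ and at 0.1 FPKM or less in the other. The knockdown had 164 such genes in anther, of which 106 were listed at 0 in knockdown panicle, and WT had 2. In panicle the knockdown had 112 such genes, of which 34 were listed at 0 in knockdown anther, and WT had 38. A listed 0 can be a failed estimate as well as a missing transcript. The 164 anther genes had a median of 36.1 FPKM in knockdown anther, against medians of 260.4 FPKM in WT anther and 20.8 FPKM in WT panicle. Of these, 154 genes also reached 10 FPKM in WT anther, whereas 3 were as low in WT panicle as in knockdown panicle. The 112 panicle genes had medians of 22.1 FPKM in knockdown panicle, 0.0539 FPKM in WT anther and 3.25 FPKM in WT panicle. Of these, 68 were also at or below 0.1 FPKM in WT anther. Both sets were picked by the knockdown values. This favours lower values in knockdown panicle than in WT panicle for the anther genes, and higher ones for the panicle genes.

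Apart from DCL1, described below, the largest differences in each direction belonged to genes without annotation. Os10g0548600 (chromosome 10, 21465007 to 21467082, build not stated) stood at 1322 FPKM in knockdown anther and 0.168 FPKM in knockdown panicle, a difference of 10.15. In WT it stood at 9842 FPKM in anther and 594 FPKM in panicle, a difference of 4.05. Os04g0668200 (chromosome 4, 34099319 to 34104974) was at 1068 FPKM in knockdown anther and listed at 0 in knockdown panicle, and at 5384 FPKM in anther and 421 FPKM in panicle of WT. Both were lower in the knockdown than in WT in each organ.

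Towards panicle, with DCL1 set aside, Os11g0167800 (chromosome 11, 3278356 to 3279436) was at 2.09 FPKM in knockdown anther and 2293 FPKM in knockdown panicle, a difference of -9.54. Its WT values were 18.9 FPKM in anther and 3079 FPKM in panicle, a difference of -7.27. Os11g0645400 (chromosome 11, 25617773 to 25621102) was at 0.204 FPKM in knockdown anther and 869 FPKM in knockdown panicle, and at 0.148 FPKM in anther and 82.1 FPKM in panicle of WT. Here the anther values were alike in the 2 genotypes and the panicle value was the larger one in the knockdown.

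Over the 100 genes with the largest difference towards anther, the smallest of which was 5.70, the median was 142.9 FPKM in knockdown anther and 0.0403 FPKM in knockdown panicle. In WT the same genes had medians of 778 FPKM in anther and 57.3 FPKM in panicle. The panicle value was 0.0256% of the anther value (median; quartiles 0% and 0.153%) in the knockdown and 7.29% (quartiles 6.32% and 9.24%) in WT. These genes were picked by the knockdown values, so their low level in knockdown panicle follows from the choice. In WT, 93 of the 100 were higher in anther by at least 1, beside 20.4% of all genes compared in WT. Of the 100, 11 had a higher value in knockdown anther than in WT anther. The part of anther tissue within the panicle samples in these values was not tested.

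For the 100 genes with the largest difference towards panicle, the medians were 0.422 FPKM in knockdown anther and 152.6 FPKM in knockdown panicle, against 1.15 FPKM in WT anther and 29.8 FPKM in WT panicle. Of these, 84 were higher in panicle in WT too, beside 18.1% of all genes compared in WT. A higher value in knockdown panicle than in WT panicle, found in 75 of them, is favoured by picking the genes on the knockdown values. The anther value was 0.302% of the panicle value (median) in the knockdown and 2.90% (quartiles 0.887% and 5.18%) in WT.

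Among the 100 symbols compared, 14 were higher in knockdown anther and 26 higher in knockdown panicle, close to the 14.0% and 22.5% of all genes. Some symbols also stand in entries joined with a neighbouring gene. Of 29 such entries 25 were compared, 7 were higher in knockdown anther and 5 higher in knockdown panicle, and they are left out of the counts by family. The largest difference towards anther was that of PLIM2B, which encodes a LIM-domain protein of the pollen type that binds actin filaments. It stood at 71.5 FPKM in knockdown anther and 0.0372 FPKM in knockdown panicle, and at 541 FPKM in anther and 31.8 FPKM in panicle of WT. The difference was 6.13 in the knockdown and 4.05 in WT. Its order of levels was WT anther, knockdown anther, WT panicle and knockdown panicle. Other cytoskeleton symbols did not follow it. The kinesin gene KIN13A was at 31.9 FPKM in knockdown anther and 51.9 FPKM in knockdown panicle, and the formin gene FH5 at 15.9 and 17.4 FPKM.

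Chitinases, enzymes that cleave chitin and are best known from defence against fungi, were the symbol family with most members higher in knockdown anther. Of 10 chitinase symbols 6 were compared, 4 were higher in anther and 1 was higher in panicle, with a median difference of 2.53. Over all genes 14.0% were higher in anther and 22.5% in panicle, with a median of -0.05. The family was grouped with values known and singled out by them, which favours such a count. The count therefore holds for its members only. Cht1 stood at 101.6 FPKM in knockdown anther and 1.96 FPKM in knockdown panicle, and at 11.98 FPKM in anther and 7.41 FPKM in panicle of WT. Its difference was 5.11 in the knockdown and 0.63 in WT, since the knockdown value was above WT in anther and below WT in panicle. Cht8 was at 21.0 FPKM in knockdown anther and 0.345 FPKM in knockdown panicle, against 15.8 and 5.45 FPKM in WT anther and WT panicle. Cht6 was at 19.5 FPKM in knockdown anther and 0.296 FPKM in knockdown panicle, against 7.21 and 4.68 FPKM in WT anther and WT panicle.

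Cht7 was by far the most abundant of the family. It was at 2175 FPKM in knockdown anther and 1033 FPKM in knockdown panicle, just inside the threshold with a difference of 1.07, and at 1999.8 FPKM in anther and 1392 FPKM in panicle of WT. Cht5 went the other way. It stood at 0.925 FPKM in knockdown anther and 3.14 FPKM in knockdown panicle, and at 0.337 FPKM in anther and 15.1 FPKM in panicle of WT. Its difference of -1.11 lay inside the threshold by little, with -0.95 both after centring on medians and with equal totals. In WT, 7 chitinases were compared, with 1 higher in anther and 1 in panicle, beside 20.4% and 18.1% over all genes in WT. Cht11, at 4.35 and 2.52 FPKM in knockdown anther and panicle, stayed under the threshold. An entry joining Cht9 with Os05g0399300 was at 58.2 FPKM in knockdown anther and 4.45 FPKM in knockdown panicle, against 10.6 and 10.5 FPKM in WT anther and WT panicle.

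**Figure D3:**
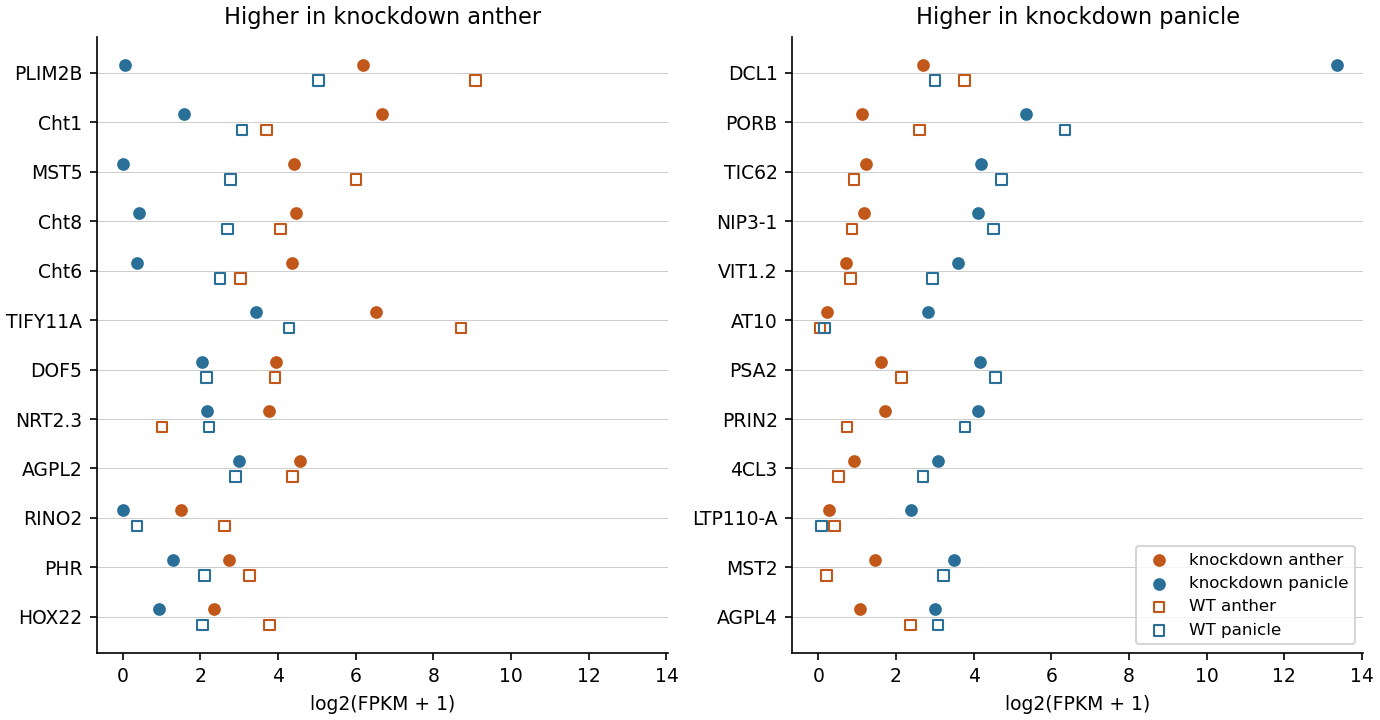
Levels of the 12 symbols with the largest difference in each direction, as log2(FPKM + 1) on the horizontal axis. Filled circles are the knockdown and open squares WT, orange is anther and blue is panicle, each 1 value per group without error; Cht1, Cht6 and Cht8 have knockdown values outside the WT pair on both sides, and DCL1 is high in knockdown panicle only.

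Sugar carriers were divided between the organs. Monosaccharide transporters of the MST family bring hexoses into cells. MST5 was at 20.3 FPKM in knockdown anther and listed at 0 in knockdown panicle, and at 63.1 FPKM in anther and 5.84 FPKM in panicle of WT. MST2 was the reverse, at 1.75 FPKM in knockdown anther and 10.3 FPKM in knockdown panicle, and at 0.160 FPKM in anther and 8.30 FPKM in panicle of WT. MST4, MST6 and MST1 leaned towards anther with differences of 0.91, 0.98 and 0.96, just outside the threshold, and passed it under each of the column scalings tried. MST8 and MST7 were below 1 FPKM in each of the columns. The sucrose transporter SUT2 was also below 1 FPKM, apart from a row that joins SUT2 with a neighbouring gene.

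Of the 6 symbols for ADP-glucose pyrophosphorylase, the enzyme that makes the glucosyl donor for starch, 5 were compared. The large-subunit gene AGPL2 was higher in anther, at 22.6 FPKM in knockdown anther and 7.002 FPKM in knockdown panicle, with nearly the same values in WT, 19.6 FPKM in anther and 6.45 FPKM in panicle. AGPL4 was higher in panicle, at 1.104 FPKM in knockdown anther and 7.01 FPKM in knockdown panicle, against 4.18 and 7.50 FPKM in WT anther and WT panicle. AGPL1 was low, at 0.273 FPKM in knockdown anther and 1.65 FPKM in knockdown panicle, and its difference of -1.06 was -0.90 after centring on medians. AGPL3, higher in anther in WT at 90.0 FPKM against 23.8 FPKM in panicle, was at 18.3 FPKM in knockdown anther and 25.04 FPKM in knockdown panicle. Its organ difference was -0.43 in the knockdown and 1.87 in WT.

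The jasmonate-signalling repressor gene TIFY11A was at 91.4 FPKM in knockdown anther and 9.71 FPKM in knockdown panicle, a difference of 3.11. In WT it was at 418 FPKM in anther and 18.5 FPKM in panicle, a difference of 4.43. TIFY3, of the same family, was at 173.1 FPKM in knockdown anther and 107.6 FPKM in knockdown panicle, and its difference of 0.68 passed the threshold only after quantile normalization (1.22) and with equal totals (1.00). Among transcription factors, the Dof gene DOF5 was at 14.3 FPKM in knockdown anther and 3.09 FPKM in knockdown panicle, with WT values of 14.2 FPKM in anther and 3.46 FPKM in panicle. Of 10 symbols for Dof factors and for bZIP factors named RISBZ or RF2, 7 were compared. DOF5 was the 1 higher in anther, close to the 14.0% of all genes. RF2b, a bZIP factor gene, was at 26.01 FPKM in knockdown anther and 17.3 FPKM in knockdown panicle, against 88.3 and 11.6 FPKM in WT anther and WT panicle.

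The remaining symbols higher in knockdown anther were low, apart from NRT2.3. HOX22, a homeodomain-leucine zipper factor gene, was at 4.11 FPKM in knockdown anther and 0.908 FPKM in knockdown panicle, and PHR, a DNA photolyase gene, at 5.66 and 1.45 FPKM. RINO2, for an enzyme of inositol synthesis, was at 1.84 FPKM in knockdown anther and listed at 0 in knockdown panicle. Each of these was higher in anther in WT too. UGE-1, a UDP-glucose epimerase gene, was at 2.15 FPKM in knockdown anther and 0.478 FPKM in knockdown panicle. The nitrate transporter gene NRT2.3 had the opposite order in WT. It was at 12.52 FPKM in knockdown anther and 3.48 FPKM in knockdown panicle, against 1.01 FPKM in WT anther and 3.65 FPKM in WT panicle.

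Most compared symbols of a group of plastid genes were higher in knockdown panicle. The group was chosen with values known, which favours such a count, so the count holds for its members only. Of 10 symbols whose products act in plastids, grouped with their values known, 8 were compared, 6 were higher in panicle and none in anther, against 22.5% and 14.0% over all genes, with a median difference of -1.86. In WT the count was 7 of 8 higher in panicle, beside 18.1% of all genes compared in WT, with a median of -1.99. PORB, the light-dependent enzyme of chlorophyll synthesis, was at 1.19 FPKM in knockdown anther and 39.5 FPKM in knockdown panicle, and at 5.08 FPKM in anther and 81.1 FPKM in panicle of WT. TIC62, of the import machinery of the inner envelope, was at 1.33 FPKM in knockdown anther and 17.4 FPKM in knockdown panicle, against 0.887 and 25.5 FPKM in WT anther and WT panicle. PSA2, for assembly of photosystem I, was at 2.09 FPKM in knockdown anther and 16.8 FPKM in knockdown panicle, and PRIN2, for plastid transcription, at 2.28 and 16.4 FPKM.

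The other symbols of the group differed less. GLU, the ferredoxin-dependent glutamate synthase gene, was at 14.0 FPKM in knockdown anther and 36.3 FPKM in knockdown panicle. LFNR2, a leaf-type ferredoxin NADP reductase gene, was at 0.0778 FPKM in knockdown anther and 1.29 FPKM in knockdown panicle, and lost the threshold when columns were centred on their medians (-0.93). APX8, the thylakoid ascorbate peroxidase gene, stopped just short with 15.7 FPKM in knockdown anther and 32.2 FPKM in knockdown panicle, a difference of -0.99. ORRM1, for editing of plastid RNA, was at 0.947 and 2.41 FPKM. PTAC12 and MURE were below 1 FPKM in both knockdown columns. Entries joined with other genes were mixed. The one with ndhM, for a subunit of the plastid NDH complex, went the other way, at 16.6 FPKM in knockdown anther and 6.43 FPKM in knockdown panicle, a difference of 1.24 that was 1.45 in WT. The one with LFNR1, a further leaf-type ferredoxin NADP reductase gene, was at 0.137 FPKM in knockdown anther and 2.95 FPKM in knockdown panicle. The plastid-encoded psbE and psbF stood in a row joined with nuclear identifiers, at 23.4 FPKM in knockdown anther and 20.5 FPKM in knockdown panicle.

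Of 6 symbols for enzymes that recycle ascorbate, an antioxidant, 4 were compared, 2 were higher in knockdown panicle and none in knockdown anther, beside 22.5% and 14.0% over all genes. The dehydroascorbate reductase gene DHAR1 was at 181.7 FPKM in knockdown anther and 562 FPKM in knockdown panicle, a difference of -1.62, against 483 and 419 FPKM in WT anther and WT panicle, a difference of 0.20. DHAR2 was at 8.83 FPKM in knockdown anther and 19.8 FPKM in knockdown panicle, against 25.02 and 29.8 FPKM in WT anther and WT panicle. Its difference of -1.08 was under the threshold with the 3 scalings tried, at -0.93 when centred on medians, -0.94 after quantile normalization and -0.79 with equal totals. Monodehydroascorbate reductase genes were at 2.53 FPKM in knockdown anther and 2.68 FPKM in knockdown panicle (MDAR3), and at 1.15 and 0.285 FPKM (MDAR4). Both also stand in joined entries at far higher levels. The one with MDAR4 was higher in anther, at 55.9 FPKM in knockdown anther and 18.4 FPKM in knockdown panicle, with a difference of 1.56 that was 1.61 in WT. The one with MDAR3 was at 96.9 FPKM in knockdown anther and 134.8 FPKM in knockdown panicle, a difference of -0.47.

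Of 10 symbols for carriers of minerals and nitrate 4 were compared, 1 was higher in knockdown anther (NRT2.3) and 2 were higher in knockdown panicle, beside 14.0% and 22.5% over all genes. A joined entry with HAK10, for a potassium transporter, was higher in anther, at 35.9 FPKM in knockdown anther and 7.496 FPKM in knockdown panicle, against 78.1 and 28.8 FPKM in WT anther and WT panicle. NIP3-1, for a boron channel of the aquaporin family, was at 1.28 FPKM in knockdown anther and 16.2 FPKM in knockdown panicle, against 0.830 and 21.8 FPKM in WT anther and WT panicle. VIT1.2, for a vacuolar iron transporter, was at 0.655 FPKM in knockdown anther and 11.05 FPKM in knockdown panicle, against 0.776 and 6.68 FPKM in WT anther and WT panicle. All 3 symbols for 4-coumarate CoA ligase, its relatives and acyltransferases were higher in knockdown panicle, beside 22.5% of all genes. They were grouped with their values known, which favours such a count, so nothing is drawn from it. In WT 1 of the 3 was compared, and it was higher in panicle. The lignin-pathway gene 4CL3, for 4-coumarate CoA ligase, was at 0.888 FPKM in knockdown anther and 7.44 FPKM in knockdown panicle, with a difference of -2.16 that was -2.18 in WT.

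Some symbols reached 1 FPKM in knockdown panicle alone, each below the median of 6.77 FPKM over all compared genes in that column. AT10, for an acyltransferase that adds p-coumarate to cell wall arabinoxylan, was at 0.170 FPKM in knockdown anther and 6.13 FPKM in knockdown panicle, against 0.0322 and 0.118 FPKM in WT anther and WT panicle. 4CLL9, a relative of 4-coumarate CoA ligase, was at 2.295 FPKM in knockdown panicle and listed at 0 in the other columns. LTP110-A, a lipid transfer protein gene, was at 0.215 FPKM in knockdown anther and 4.23 FPKM in knockdown panicle, against 0.342 and 0.0565 FPKM in WT anther and WT panicle. LTP110-A is the sum of a row on chromosome 11 and a row on chromosome 12.

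**Figure D4:**
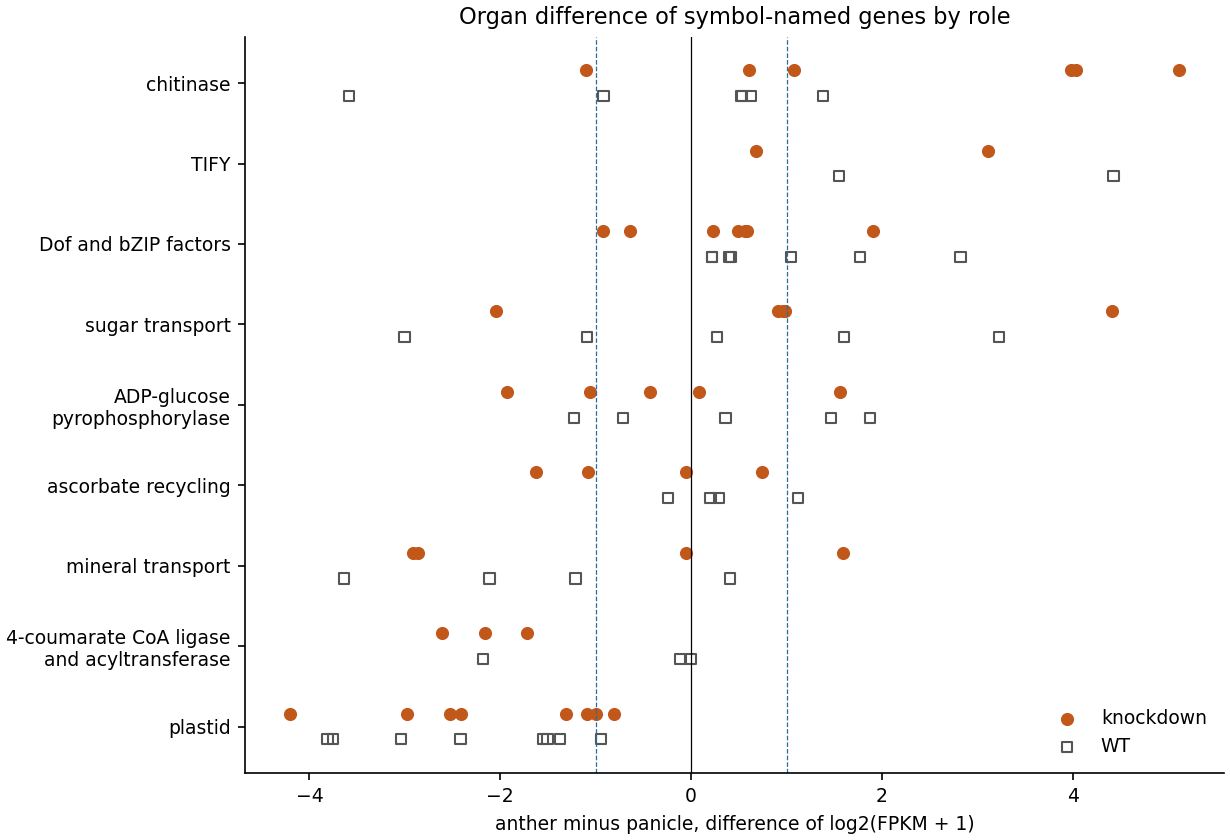
Organ difference (anther minus panicle, log2(FPKM + 1) scale, horizontal axis) of the compared symbols in 9 groups by role, 1 point per gene. Orange circles are the knockdown and open squares WT, and dashed lines mark differences of 1 and -1. The groups were chosen with values known. All compared symbols of the plastid group lie left of 0 in both genotypes, and 5 of the 6 chitinases lie right of 0 in the knockdown.

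DCL1, the Dicer-like gene that processes microRNA precursors (chromosome 3, 1194210 to 1205389), had the largest difference of all genes compared, -10.66. It was at 5.54 FPKM in knockdown anther and 10595 FPKM in knockdown panicle, against 12.6 FPKM in WT anther and 7.04 FPKM in WT panicle. It was the most abundant entry of knockdown panicle, with 2.47% of the column. A second row of that locus, which joins DCL1 with Os03g0121700, was at 8.93 FPKM in knockdown anther and 4.64 FPKM in knockdown panicle, a difference of 0.82, so the high value stood in 1 row of 1 column. How reads shared by overlapping rows were divided is not stated, and whether the value is an error of estimation or of the table was not tested.

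Of 41 listed symbols of small RNAs and DNA methylation 5 were found and 4 compared. DCL1 was the 1 past the threshold within the knockdown, beside 36.5% of all genes compared. SHL2, the RNA-dependent RNA polymerase gene of trans-acting small RNAs, was at 5.06 FPKM in knockdown anther and 9.16 FPKM in knockdown panicle. CMT3, for a plant DNA methyltransferase, was at 0.645 and 1.56 FPKM, and DCL3B, for a Dicer-like enzyme of reproductive phased small RNAs, at 2.28 and 1.52 FPKM. RDR1 was below 1 FPKM in both.

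Symbols that mark the organs were sparse, so the organ labels could not be checked broadly by them. Of 29 listed genes of the anther wall and tapetum only MSP1 was found, a receptor kinase gene that limits the number of sporocytes. It was at 3.65 FPKM in knockdown anther and 8.50 FPKM in knockdown panicle, and its difference of -1.03 was -0.87 when centred on medians, -0.89 after quantile normalization and -0.77 with equal totals. Of 19 late pollen genes MST8 alone was found. Of 28 meiosis genes CRC1, a component of the synaptonemal complex, was found, at 5.18 FPKM in knockdown anther and 3.59 FPKM in knockdown panicle. DTM1, known for defects of tapetum and meiocytes in its mutant, was at 21.2 and 23.99 FPKM.

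For the panicle, the meristem genes LAX2, MOC1 and OSH1 were found of 31 listed, and none reached 1 FPKM in either knockdown column. OSH1 was at 0.747 FPKM in knockdown anther and 0.409 FPKM in knockdown panicle, and at 3.78 FPKM in anther and 0.788 FPKM in panicle of WT. Of 21 floral MADS genes 2 were found. MADS14 was alike at 12.3 FPKM in knockdown anther and 12.4 FPKM in knockdown panicle, and MADS58 was below 1 FPKM in both. Of 35 starch and sugar genes 7 were found and 5 compared. Of these, 1 was higher in anther and 2 in panicle, each described above, beside 14.0% and 22.5% over all genes. The histone symbols H2B.4 and H3R-21 were below 1 FPKM, and none of 9 flavonoid genes was found.

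Other families showed little contrast between the organs at the main settings. None of the 4 compared acyl-CoA-binding protein genes and none of the 4 compared SERK-type receptor kinase genes passed the threshold, with differences from -0.57 to 0.77 and from -0.23 to 0.81. Of all genes compared, 63.5% stayed under it too. ACBP2 passed it after quantile normalization (1.00) and with equal totals (1.08). SERK3 passed it with equal totals (1.04) and with 0.1 FPKM added in place of 1 (1.56). TOR, a kinase that couples growth to nutrients, was at 29.4 FPKM in knockdown anther and 22.1 FPKM in knockdown panicle. The ABA-activated kinase gene SAPK8 was at 59.7 and 59.4 FPKM, and the sterol methyltransferase gene Smt2-1 at 36.9 and 35.8 FPKM. MSBP1, for a membrane steroid-binding protein, was an exception at 78.4 FPKM in knockdown anther and 212.9 FPKM in knockdown panicle.

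The organ difference of the knockdown was set beside that of WT, with which it shares no column, over the 20322 genes of at least 1 FPKM in any column. The 2 differences had a Pearson correlation of 0.66 and a Spearman correlation of 0.58. The genes are not independent replicates. Of the 2653 genes higher in knockdown anther, 1672 (63.0%) were higher in anther in WT and 82 (3.09%) were higher in panicle there. Of the 4261 higher in knockdown panicle, 2088 (49.0%) were higher in panicle in WT and 153 (3.59%) were higher in anther there. Over all genes compared in WT, 20.4% were higher in anther and 18.1% in panicle. Seen from WT, 43.4% of the genes higher in WT anther and 60.9% of those higher in WT panicle were past the threshold in that direction in the knockdown. Over all genes compared in the knockdown, 14.0% were higher in anther and 22.5% in panicle.

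Genes with an organ difference in the knockdown but not in WT numbered 899 towards anther and 2020 towards panicle. Which of these numbers was larger depended on the scaling of the columns. With equal totals 3747 genes were higher in knockdown anther, beside 1495 higher in anther in both genotypes and 292 opposite in WT. Towards panicle these numbers were 3631, 2388 and 42, so that the larger remainder then lay towards anther. The 899 genes had medians of 6.39 FPKM in knockdown anther and 1.18 FPKM in knockdown panicle, against 3.62 and 2.71 FPKM in WT anther and WT panicle. These genes were chosen for a difference in the knockdown and none in WT, so values on opposite sides of WT follow in large part from the choice. The 2020 genes had medians of 1.71 FPKM in knockdown anther and 10.2 FPKM in knockdown panicle, against 2.2 and 2.85 FPKM in WT anther and WT panicle. For these, chosen in the same way, the median change from WT was -0.07 in anther and 1.18 in panicle. The 2031 genes with a difference towards anther in WT alone had a median change from WT of -1.12 in anther and 0.0049 in panicle. These were chosen for a difference in WT and none in the knockdown, which favours a lower value in knockdown anther. Summed FPKM was 341703 in knockdown anther and 636692 in WT anther, and the part of column scaling in this change was not tested.

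**Figure D5:**
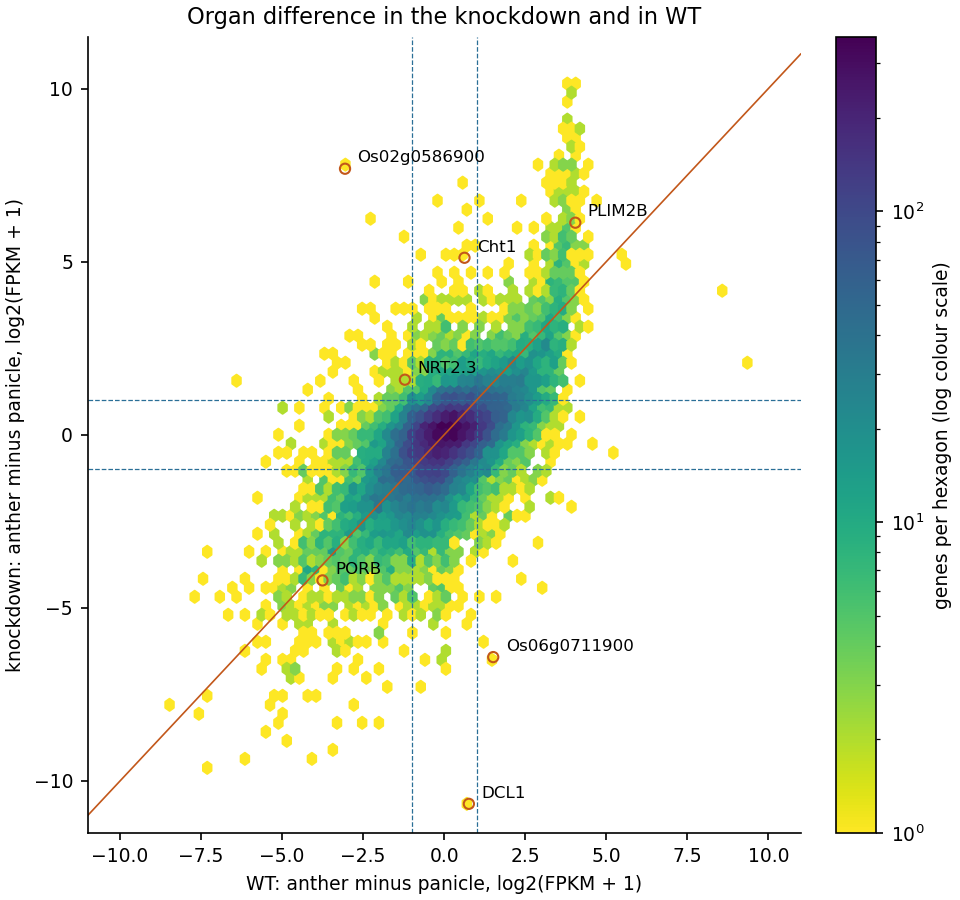
Anther minus panicle in the knockdown (vertical axis) and in WT (horizontal axis), both as differences of log2(FPKM + 1), over 20322 genes binned in hexagons, with dashed lines at 1 and -1 and the line of equal differences. The genes with the largest differences towards anther in the knockdown pile up near 4 in WT, and DCL1 and Os02g0586900 lie far from the line.

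Genes called towards the same organ in both genotypes did not differ in size in 1 direction only. Of the 1672 genes higher in anther in both, 42.4% had the larger difference in the knockdown, and the medians were 1.94 in the knockdown and 2.39 in WT. Of the 2088 higher in panicle in both, 53.6% had the larger difference in the knockdown, and the medians were -2.15 in the knockdown and -1.98 in WT. These shares and medians were not recomputed with other scalings of the columns. Which genotype had the larger difference can therefore depend on the scaling.

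Many gene names fill more than 1 row at a locus. Of 2203 names with 2 rows above the FPKM limit, 226 had both rows higher in knockdown anther and 395 both higher in knockdown panicle. In 522 names 1 row alone passed the threshold, and in 16 names (0.726%) the rows passed it in opposite directions. None of these 16 was a single symbol.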

How the data were processed

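The deposited table holds FPKM, 1 value per gene row and group, per the file headers. The authors' way of combining the 2 libraries per group is not stated. Trimmomatic, HISAT2 and Cufflinks 2.2.1 are named per the submitters' processing notes, with no settings. Which genome build and annotation were used, and whether libraries were scaled to each other, is not given in the sources used here.

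The 43897 rows were summed by gene name to 30154 names. Differences are of log2(FPKM + 1), anther minus panicle, which understate changes of weak transcripts. Genes with at least 1 FPKM in either column were compared and counted as higher at an absolute difference of at least 1. With 1 value per group there is no test and no p-value. Names joining several genes (1599) were kept in counts but not named by rule. Depth is unknown, so no interval is given.

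The 12 symbols with the largest difference each way, the 2 largest Os numbers each way, the 4 single genes with the largest difference of opposite direction in WT, and list members were named. The rule also asked for the 3 most abundant genes of each column. Those without annotation are not named. Other genes were chosen with values known. The comparison, the lists and the role groups were chosen with earlier results of these data known. Symbols were matched to RefSeq assembly ASM3414082v1 for names only, and no sequences were used. Alternatives changed the pseudocount, filter, scaling, summing of rows and threshold. Python 3.11.15, numpy 2.4.6, pandas 2.3.3 and matplotlib 3.10.9 were used, and the counting step was tested on simulated data.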

Additional observations from a re-analysis of the deposited data

Results flagged for a closer look

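Some genes had organ differences of opposite direction in the 2 genotypes. A total of 82 genes were higher in anther in the knockdown and in panicle in WT, and 153 genes were higher in panicle in the knockdown and in anther in WT, together 3.40% of the 6914 genes past the threshold in the knockdown. Each group has 1 value, so the difference between genotypes was not tested, and no cause was tested.

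Os02g0586900 (chromosome 2, 22622383 to 22623581) was at 336 FPKM in knockdown anther and 0.637 FPKM in knockdown panicle, a difference of 7.69, against 0.362 FPKM in WT anther and 10.4 FPKM in WT panicle, a difference of -3.06. Os04g0659300 (chromosome 4, 33641296 to 33642344) was at 79.4 FPKM in knockdown anther and 0.537 FPKM in knockdown panicle, a difference of 5.71, against 23.1 FPKM in WT anther and 57.6 FPKM in WT panicle, a difference of -1.28.

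Os06g0711900 (chromosome 6, 30113912 to 30115629) was at 0.483 FPKM in knockdown anther and 126.3 FPKM in knockdown panicle, a difference of -6.42, against 16.6 FPKM in WT anther and 5.17 FPKM in WT panicle, a difference of 1.51. Os01g0127500 (chromosome 1, 1513137 to 1514500) was at 0.319 FPKM in knockdown anther and 87.6 FPKM in knockdown panicle, a difference of -6.07, against 1.77 FPKM in WT anther and 0.146 FPKM in WT panicle, a difference of 1.27. Among the symbols, NRT2.3 met the same condition, with a difference of 1.59 in the knockdown and -1.21 in WT.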

How the results depend on the processing

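No paired analysis was possible because each group is a single column without replicate numbers, and for the same reason no library could be left out. Removing the filter on low values cannot change the counts at a pseudocount of 1, and a filter of 5 FPKM left 1784 genes higher in anther and 3175 higher in panicle. Of the counts, medians and correlations recomputed, 60 differed from the reported one by less than 1.5 times (counts) or 0.1 (medians, correlations), and 18 differed by more. The 60 include the counts without the filter, which could not change. At a pseudocount of 0.1, 2548 genes were higher in anther and 3136 higher in panicle in both genotypes, and the opposite genes numbered 242 (anther in the knockdown) and 304 (panicle in the knockdown). Scaling moved the median difference to 0.102 (median centring), 0.128 (quantile normalization) and 0.222 (equal totals). Equal totals gave 292 and 42 opposite genes in place of 82 and 153, so which of these was larger turned with the scaling. Median centring left 2 list members higher in panicle. A threshold of 2 left 1024 genes higher in anther and 1811 higher in panicle in the knockdown, 670 and 728 in both genotypes, 17 and 8 opposite genes, and 0 and 1 list members. Causes were not tested. Among the 83 single genes followed, none past the threshold changed sign, 30 values lost the threshold (19 of them under the threshold of 2) and 23 gained it.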

Other observations

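Genes higher in 1 organ were spread over all 12 chromosomes. The share of compared genes higher in knockdown anther ran from 12.003% on chromosome 3 to 16.9% on chromosome 11, and the share higher in knockdown panicle from 20.5% on chromosome 12 to 25.1% on chromosome 4. Neighbours were taken among compared genes with a single Os number whose locus coordinates no other such gene had. Symbols and joined entries were skipped, and loci that overlap in part were kept. Such neighbours shared their direction somewhat more often than these genes at large. After a gene higher in anther, the next such gene was higher in anther in 18.5% of 2088 cases, against 13.9% over all 14998 neighbour pairs. After a gene higher in panicle it was higher in panicle in 26.3% of 3418 cases, against 22.8%.

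Among the same genes, with symbols and joined entries skipped, the longest run towards anther was 7 genes on chromosome 6 (27303682 to 27339030, 35.3 kb). They stood between 1.097 and 274 FPKM in knockdown anther and were all listed at 0 in knockdown panicle. All 7 were higher in anther in WT, beside 20.4% of all genes compared in WT. A run of 7 such genes towards panicle lay on chromosome 4 (18779046 to 18870465, 91.4 kb). It had 0 to 11.4 FPKM in knockdown anther and 4.25 to 169.2 FPKM in knockdown panicle. Of these 4 were higher in panicle in WT, beside 18.1% of all genes compared in WT. How reads that fit several places were assigned is not stated, and its part in such runs was not tested.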
